A study of Homo sapiens with 7 samples.

Results

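The cells described here are the epithelial-gene cells of 2 single-cell RNA libraries, day 15 CHIR and day 15 DMSO. A cell was taken when at least 3 of 5 genes of epithelia, EPCAM, CLDN4, CLDN7, RAB25 and WFDC2, had 1 or more unique molecular identifier (UMI, 1 counted transcript molecule). This gate held 222 of the 9622 day 15 cells, 138 of 4015 with DMSO and 84 of 5607 with CHIR. The cells were thus selected on the measured UMIs of these 5 genes, whose levels are given below only as a description. The working name of these cells was endoderm-like, and their genes went against it, so they are called gated cells here.

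Both libraries came from the human embryonic stem cell line H1, which is long established, differentiated toward heart cells and sequenced on day 15. CHIR is the usual short form of CHIR99021, a small molecule that inhibits the kinase GSK3, and DMSO is its solvent. The labels give neither the dose of CHIR nor when or for how long it was added. A day 11 library of the same line, for which the labels name no treatment, is set beside them where that helps, and the study's title concerns Wnt signalling in the making of atrioventricular canal heart muscle cells.

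Epithelial cells line surfaces and are held together by junctions, to which EPCAM and the claudins CLDN4 and CLDN7 belong. RAB25 is a small GTPase of vesicle recycling and WFDC2 a secreted protein, both typical of epithelia. Endoderm, the germ layer of gut, liver and yolk sac lining, arises next to the heart-forming mesoderm and can accompany it in culture, but epithelia of the surface ectoderm and the amnion share the gate genes. In canonical Wnt signalling, inhibition of GSK3 lets β-catenin enter the nucleus and switch on target genes through TCF and LEF factors. Many of these targets, such as AXIN2, NKD1, NOTUM, RNF43 and ZNRF3, dampen the pathway in return.

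With 1 library in each group no difference had a replicate check. The intervals in brackets are exact 95% intervals that cover counting error only, and no p-value is given. The gated cells held 3175084 UMIs with DMSO and 1777093 with CHIR, at a median of 22030 and 20829 UMIs a cell, against 15095 and 12632 in the cells outside the gate. Mitochondrial transcripts took 1.98% of the gated UMIs with DMSO and 4.59% with CHIR, and ribosomal protein genes 28.8% and 31.9%. The libraries shared 4 cell barcodes, none of them gated. Levels are CPM, UMIs of all gated cells of a library added up and scaled to the same total, and a gene was compared where it had at least 20 UMIs over both libraries. A few list members were singled out after their values were seen. They are NOTUM, ZNRF3, DKK1, TCF7, TNFRSF19, WNT4, WNT5A, FRZB, SFRP5, AHSG, VTN, APOB, FOXA3, HHEX, FOXE1, TP63, TFAP2C, VTCN1, DSP, MSX1, MYH7, TNNT2, NANOG, USP18, IFITM1 and HLA-B.

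Gated cells were a smaller part of the CHIR library. They were 3.44% of all cells with DMSO (2.90 to 4.05), 1.5% with CHIR (1.20 to 1.85) and 6.58% on day 11 (5.95 to 7.26). The intervals of the 3 libraries did not overlap. A cell with more UMIs passes such a gate more easily. With every cell thinned to 5000 UMIs the shares were 2.71% with DMSO and 0.896% with CHIR, in the same order.

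All 5 gate genes were lower with CHIR inside the gate. EPCAM stood at 466 CPM with DMSO and 335 with CHIR. CLDN4 stood at 260 and 195, CLDN7 at 260 and 178, and RAB25 at 284 and 188. WFDC2 differed most, at 568 CPM with DMSO against 170 with CHIR, and was the only gate gene at least 2-fold lower. Most gated cells carried nearly the whole set. With DMSO 17 cells had exactly 3 of the genes, 16 had 4 and 105 had 5, and with CHIR 12, 26 and 46 cells did.

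Few cells lay just inside the gate. The 17 DMSO cells with 3 gate genes had 1398 CPM of the heart muscle troponin TNNT2 and 5.43 CPM of CDH1, the E-cadherin of epithelial junctions, and the 137 cells with 2 gate genes had 1319 and 6.51 CPM. Cells with 4 or 5 genes with DMSO had 177 and 148 CPM of TNNT2. With CHIR, TNNT2 stood at 1026 CPM in cells with 2 gate genes, 1061 with 3, 282 with 4 and 321 with 5. CDH1, however, stood at 6.89 CPM in the 38 CHIR cells with 2 gate genes and at 24.7 CPM in the 12 with 3. EPCAM itself, which the gate used, stood at 41.2 and 97.8 CPM in cells with 2 and 3 gate genes with DMSO, and at 44.1 and 131 CPM with CHIR.

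Endoderm genes marked only a minority of the gated cells. FOXA2, a pioneer factor of endoderm, had a UMI in 13.0% of gated cells with DMSO (7.92 to 19.8) and 9.52% with CHIR (4.2 to 17.9), against 0.0258% and 0.0724% of the cells outside the gate. TFAP2A, a factor of surface ectoderm and amnion, had one in 44.2% with DMSO (35.8 to 52.9) and 57.1% with CHIR (45.9 to 67.9), against 0.232% and 0.344% outside. In cells thinned to 5000 UMIs these shares were 4.35% and 3.57% for FOXA2 and 25.4% and 26.2% for TFAP2A. HNF4A, the factor of liver and gut epithelium, had 11 UMIs with DMSO and 1 with CHIR.

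The gated cells therefore were sorted, after their values were seen, by 2 sets of genes. Endoderm-gene cells had at least 2 of 8 endoderm genes, among them FOXA1, FOXA2, SOX17, HNF4A, TTR, APOA2 and AFP. TFAP2A-set cells had at least 2 of TFAP2A, TFAP2C, VTCN1, GABRP and TP63. With DMSO the gate held 22 endoderm-gene cells (15.9%, 10.3 to 23.1), 60 TFAP2A-set cells (43.5%, 35.1 to 52.2) and 56 cells with neither set. With CHIR it held 7 endoderm-gene cells (8.33%, 3.42 to 16.4), 45 TFAP2A-set cells (53.6%, 42.4 to 64.5) and 32 with neither. No gated cell of any library had both sets. The shares of the 2 treatments overlapped in their intervals for both sets.

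On day 11 the order was the other way round. Endoderm-gene cells were 160 of 374 gated cells (42.8%, 37.7 to 48.0) and TFAP2A-set cells 31 (8.29%, 5.70 to 11.6). As a share of all cells in the library, endoderm-gene cells were 2.82% on day 11, 0.548% at day 15 with DMSO and 0.125% with CHIR. TFAP2A-set cells were 0.545%, 1.49% and 0.803% in the same order.

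**Figure D1:**
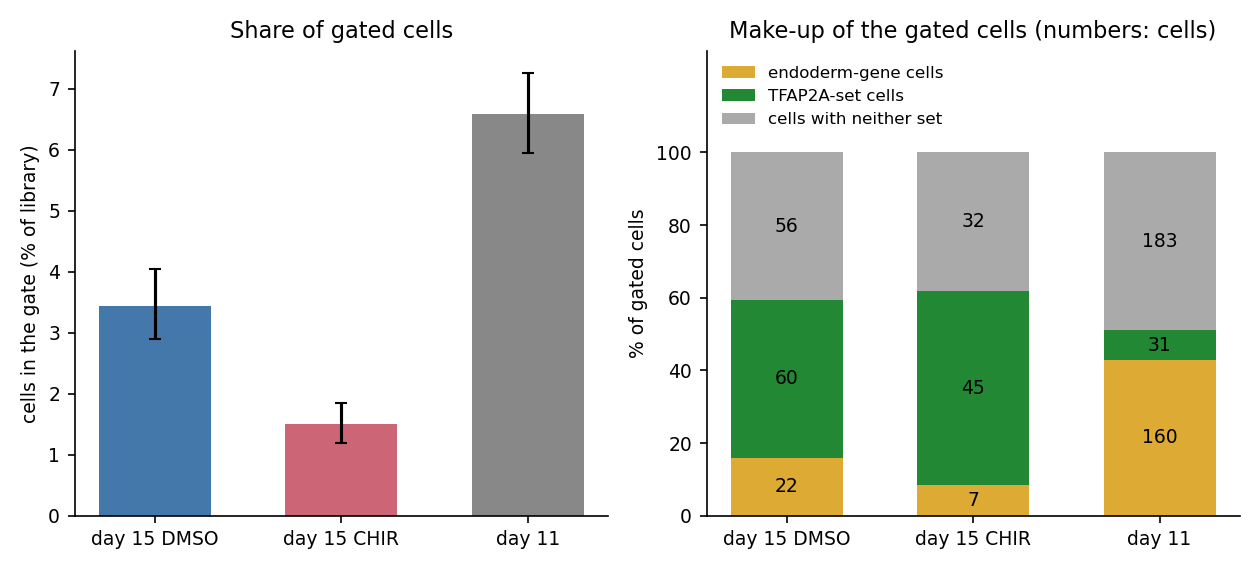
Left, the share of each library's cells inside the gate in percent, with the exact 95% counting interval as error bar (1 library each). Right, the gated cells of each library divided by gene set, in percent with the number of cells written in each part: endoderm-gene cells are 22 of 138 with DMSO, 7 of 84 with CHIR and 160 of 374 on day 11.

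Over all 10612 genes compared, 2132 were at least 2-fold higher with CHIR (20.1%) and 876 at least 2-fold lower (8.25%). The median log2 ratio of CHIR over DMSO was 0.27, where 0 means no difference. TMM scaling, which sets the bulk of genes equal, moved that median to -0.03 and the counts to 1230 higher (11.6%) and 1469 lower (13.8%). Higher genes were thus 70.9% of those past 2-fold in the main scaling and 45.6% under TMM. Genes with long spans were higher more often than short ones, with a median log2 ratio of -0.19 among the shortest of 5 equal groups and 0.63 among the longest. Outside the gate the medians of these 2 groups were -0.31 and 0.30, in the same order. Single genes and lists below are read against the shift over all genes compared.

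Wnt target genes were the group most plainly higher with CHIR. Of the 14 measured members of the list, 12 were at least 2-fold higher (20.1% of all genes) and none lower by as much (8.25%). The median log2 ratio was 2.26. AXIN2, the scaffold of the complex that destroys β-catenin, had 2 UMIs with DMSO and 65 with CHIR, or 0.630 and 36.6 CPM, a ratio of 58.1 (15.4 to 490). NKD1, an inhibitor that binds Dishevelled, stood at 0.945 and 50.1 CPM, a ratio of 53 (17.6 to 262). SP5, a transcription factor induced by Wnt signals, stood at 0.630 and 37.1 CPM, a ratio of 59.0 (15.7 to 497). AXIN2 had a UMI in 1.45% of the gated cells with DMSO and 45.2% with CHIR, NKD1 in 2.17% and 51.2%, and SP5 in 0.725% and 29.8%. Outside the gate, where the same targets were high, the CHIR shares were 53.2%, 63.5% and 22.3%. In cells thinned to 5000 UMIs none of the 3 was seen in the gated cells with DMSO, and with CHIR AXIN2 was in 9.52%, NKD1 in 19.1% and SP5 in 16.7% of gated cells, against 26.5%, 43.9% and 9.91% outside.

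The window before the start of SP5 is shown because it was the only one among 9 Wnt targets with a RefSeq promoter entry, of 14 measured, that held CTTTGAT or, on the other strand, ATCAAAG, to which TCF and LEF factors bind. The 250 bases lie at chr2:170715087-170715336 on the plus strand (GRCh38.p14), with the match in capitals.

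SP5: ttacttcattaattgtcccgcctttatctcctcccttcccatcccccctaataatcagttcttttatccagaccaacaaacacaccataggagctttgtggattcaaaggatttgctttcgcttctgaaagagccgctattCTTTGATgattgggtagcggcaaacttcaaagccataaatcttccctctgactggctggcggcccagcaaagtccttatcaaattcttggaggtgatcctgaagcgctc

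The match begins 109 bases before the start of the gene and reads on the same strand. Of all 27305 promoter windows of this length, 622 (2.28%) held a match. It is a description of letters, and no binding was measured here.

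Transcription factors and membrane regulators of the pathway followed. LEF1, a partner of β-catenin on DNA, stood at 7.87 CPM with DMSO and 77.1 with CHIR, 9.79-fold higher (6.36 to 15.7), and its relative TCF7 at 1.26 and 9.0 CPM. APCDD1, a membrane inhibitor that binds Wnt ligands, stood at 3.15 and 57.4 CPM, 18.2-fold higher (9.52 to 39.1). ZNRF3, a ligase that removes Wnt receptors, was 6.21-fold higher (3.68 to 10.9), and RNF43, a ligase of the same kind, 2.20-fold (1.27 to 3.84). RNF43 and TNFRSF19, at 2.29-fold, came under 2-fold with TMM, where 10 of the 14 remained past it (11.6% of all genes). Of the secreted inhibitors, NOTUM, which removes a lipid from Wnt proteins, was 3.8-fold higher (2.46 to 5.97). DKK1, which blocks the LRP receptors, was 3.49-fold higher (2.36 to 5.21), but 1 cell held 45.0% of its CHIR UMIs. CCND1, the cyclin that drives entry into the cell cycle, was 2.78-fold higher (2.34 to 3.30), at 70.2 and 195 CPM.

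BMP4 and TCF7L2 were the other two measured members. BMP4, a ligand of the BMP pathway, stood at 65.5 CPM with DMSO and 110 with CHIR, 1.68-fold higher (1.38 to 2.06). TCF7L2 stood at 25.8 and 34.9 CPM, a ratio of 1.35 (0.955 to 1.90) whose interval included 1.

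The Wnt targets were also higher with CHIR in the cells outside the gate, where 11 of 17 measured members were at least 2-fold higher (12.1% of all 18605 genes there) and none was at least 2-fold lower. Their median log2 ratio was 1.52 outside and 2.26 inside. AXIN2 was 26.2-fold higher outside and NKD1 157-fold. APCDD1 was 3.95-fold higher outside against 18.2-fold inside, and DKK1 stood at 54.6 CPM outside with DMSO and 48.3 with CHIR. These differences between ratios were not tested.

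Transcripts freed from the many cells outside the gate can enter the droplets of gated cells. In the CHIR library the level inside the gate over that outside was 0.355 for NKD1, 0.598 for AXIN2, 1.72 for SP5, 2.28 for NOTUM and 3.85 for APCDD1. For POSTN, a matrix protein of the mesenchyme, it was 0.205, and for MYL7, the atrial myosin light chain, 0.222. The part of freed transcripts in any of these levels was not tested.

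**Figure D2:**
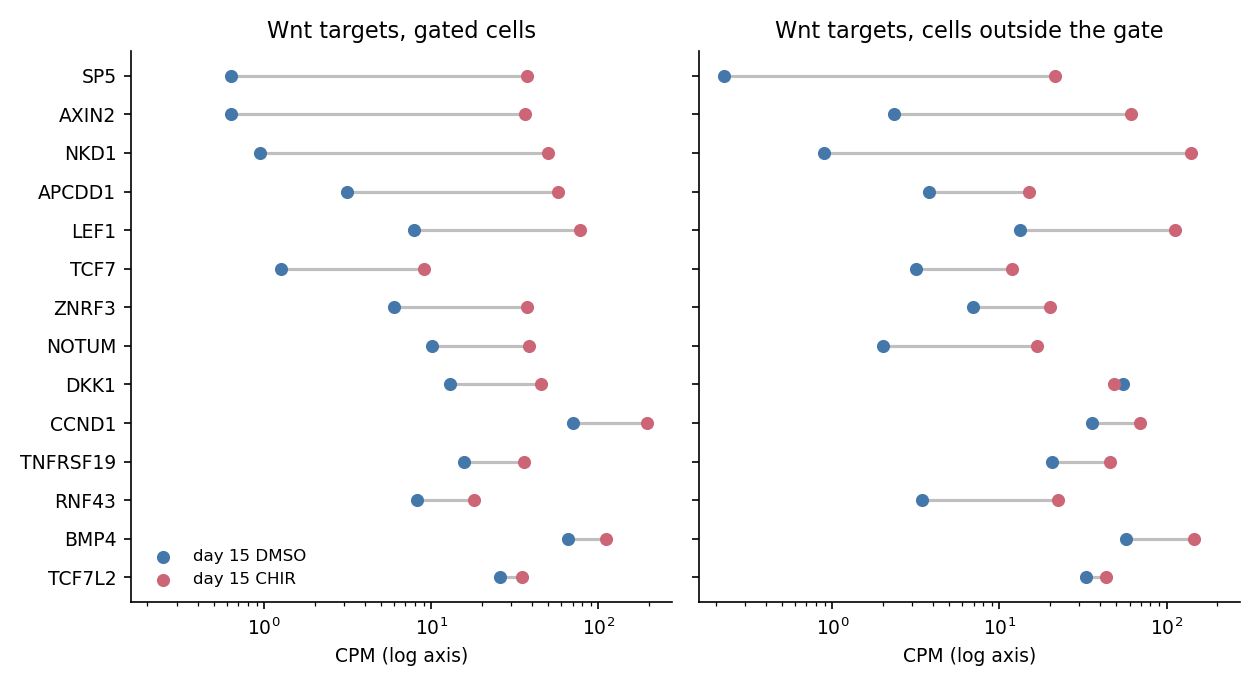
Levels in CPM (log axis) of the 14 measured Wnt targets with DMSO (blue) and CHIR (red), in the gated cells on the left and in the cells outside the gate on the right, 1 library each. AXIN2, NKD1 and SP5 lie below 1 CPM with DMSO and between 36.6 and 50.1 CPM with CHIR inside the gate.

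Each set of gated cells had higher Wnt targets with CHIR. In endoderm-gene cells 4 of 6 measured targets were at least 2-fold higher (11.6% of all genes compared there), with a median log2 ratio of 2.38. In TFAP2A-set cells 7 of 11 were higher (23.0%) and 1, DKK1, was lower (6.61%), with a median of 1.89. In cells with neither set 10 of 13 were higher (16.6%), with a median of 3.24. CCND1 differed between the sets, at 17.3 CPM with DMSO and 141 with CHIR in TFAP2A-set cells against 200 and 139 in endoderm-gene cells.

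The summed level of the Wnt targets varied from cell to cell. Over all gated cells it ranged from 0 to 1089 CPM around a median of 191 with DMSO, and from 79.6 to 3421 around 641 with CHIR. With CHIR the median was 460 in TFAP2A-set cells, 1037 in cells with neither set and 1270 in endoderm-gene cells, and with DMSO it was 136, 210 and 363. The order of the sets was the same under both treatments, and the ranges of the treatments overlapped in each set.

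Genes of secreted liver and yolk sac proteins were the group most plainly lower with CHIR. Of 22 measured members, 19 were at least 2-fold lower (8.25% of all genes) and 1, APOB, at least 2-fold higher, with a median log2 ratio of -3.09, or -3.01 with the 2 genes at 0 in the CHIR library set to their bound. SERPINA1, the antitrypsin of plasma, stood at 2825 CPM with DMSO and 179 with CHIR, 15.8-fold lower (14.1 to 17.7). TTR, the carrier of thyroid hormone and retinol, stood at 719 and 162 CPM, 4.45-fold lower (3.94 to 5.05). AFP, the albumin of the fetus, stood at 225 and 18 CPM, 12.5-fold lower (8.78 to 18.4). FGB, a fibrinogen chain, stood at 137 and 4.50 CPM, 30.4-fold lower (15.3 to 70.9).

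TTR, SERPINA1 and AFP had a UMI in a smaller share of gated cells with CHIR, and their levels differed by more than these shares. TTR had a UMI in 16.7% of gated cells with DMSO (10.9 to 24.0) and 7.14% with CHIR (2.67 to 14.9), against 1.06% and 0.453% outside the gate. Thinned, its shares were 15.2% and 7.14%, those of SERPINA1 12.3% and 7.14%, and those of AFP 10.1% and 3.57%. In a sum over cells, fewer cells of a kind and less RNA in each cannot be told apart. Within the endoderm-gene cells, which TTR, APOA2 and AFP helped to choose, 15 of the 22 members were at least 2-fold lower (20.5% of all genes compared there), with a median log2 ratio of -1.79, or -1.46 at the bounds. SERPINA1 stood at 17780 CPM with DMSO and 2770 with CHIR there, 6.42-fold lower (5.74 to 7.20). TTR stood at 4509 and 2500 CPM, 1.80-fold lower (1.59 to 2.05). APOA2, an apolipoprotein of HDL, stood at 2614 and 2518 CPM, a ratio of 0.963 (0.845 to 1.10). So SERPINA1 was several-fold lower in these cells, TTR less so, and the interval of APOA2 included 1. In TFAP2A-set cells only 3 members were measured and 0 were at least 2-fold lower (6.61% of all genes compared there). Their median log2 ratio was -0.47. In cells with neither set 3 of 5 were lower by as much (11.0%), with a median of -1.23.

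Few cells stood behind the values of secreted protein genes. The 7 endoderm-gene cells with CHIR held 114788 UMIs, against 504297 in 22 cells with DMSO, and a single cell held 49.7% of the SERPINA1 UMIs with CHIR and 25.5% with DMSO. All 8 FGB UMIs with CHIR came from 1 cell. AHSG, a plasma glycoprotein, was 13.2-fold lower (5.89 to 36.5), but 1 cell held 87.9% of its DMSO UMIs. ALB, the albumin of plasma, had 27 UMIs with DMSO and 0 with CHIR, at least 5.04-fold lower against a floor of 3 counts in the library.

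Some members were also present outside the gate. APOE stood at 2438 CPM with DMSO and 1517 with CHIR and was seen in every gated cell. APOA1, the main protein of HDL, stood at 805 and 202 CPM, 4.00-fold lower (3.58 to 4.48), and outside the gate at 53 and 7.92 CPM, 6.69-fold lower. VTN, the adhesion protein vitronectin, was 7.84-fold lower (5.79 to 10.8) and outside the gate stood at 25 and 3.35 CPM. APOB, the large protein of lipoproteins, was 3.41-fold higher (1.99 to 6.0), with 47.6% of its CHIR UMIs and 68.2% of its DMSO UMIs in 1 cell each.

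Endoderm transcription factors were scarce in both libraries. Of 18 listed factors 6 had enough UMIs. Of these, 2 were at least 2-fold lower (8.25% of all genes) and none higher (20.1%), with a median log2 ratio of -0.47. HHEX, a factor of liver and foregut, stood at 15.8 CPM with DMSO and 2.25 with CHIR, 7.00-fold lower (2.57 to 26.7), and FOXA3, a liver factor, at 14.5 and 2.81 CPM, 5.15-fold lower (2.05 to 16.6). FOXA2 stood at 15.8 and 8.44 CPM over all gated cells, but at 91.2 and 113 CPM within the endoderm-gene cells it helped to choose. SOX17, a factor of definitive endoderm and of endothelium, had 1 UMI with DMSO and 13 with CHIR.

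**Figure D3:**
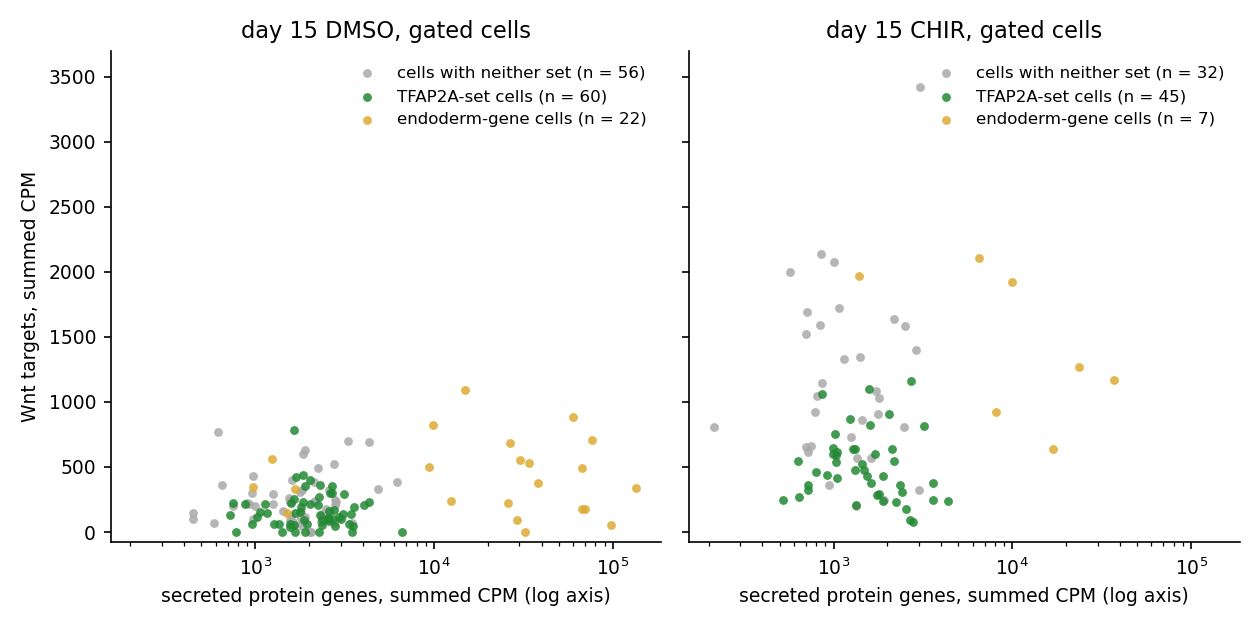
Each point is 1 gated cell of the DMSO library (left, 138 cells) or the CHIR library (right, 84 cells), with the summed CPM of 25 secreted protein genes on a log axis against the summed CPM of 20 Wnt targets, coloured by gene set. Endoderm-gene cells reach 135500 CPM of secreted protein genes with DMSO and 36980 with CHIR, and the median of Wnt targets is 191 CPM with DMSO and 641 with CHIR.

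Of the 5 genes of the TFAP2A set, which chose those cells, 3 had intervals that included 1 and 2 were higher with CHIR. TFAP2A stood at 84.7 CPM with DMSO and 95.1 with CHIR, a ratio of 1.12 (0.920 to 1.37). GABRP, a GABA receptor subunit of amnion and gland epithelium, stood at 91.3 and 104 CPM, a ratio of 1.14 (0.943 to 1.38). VTCN1, an immune checkpoint protein of trophoblast and amnion, stood at 22.7 and 26.4 CPM, a ratio of 1.17 (0.790 to 1.71). Under TMM the log2 ratios of TFAP2A and GABRP turned to -0.14 and -0.11.

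The other two genes of the set were scarcer. TFAP2C, a relative of TFAP2A, was 2.64-fold higher with CHIR (1.55 to 4.58), and TP63, the factor of stratified epithelia, had 2 UMIs with DMSO and 20 with CHIR, a ratio of 17.9 (4.34 to 158). GATA3 and ISL1, factors present in amnion, stood at 89.8 and 130 CPM with DMSO and at 54.6 and 65.3 with CHIR. Over the list, 2 of 7 measured members were at least 2-fold higher (20.1% of all genes) and none lower (8.25%). Their median log2 ratio was 0.19, below that of all genes.

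Keratins differed in both directions within the gate. KRT19 was 2.59-fold lower with CHIR (2.46 to 2.73), from 2567 to 992 CPM, while KRT8 stood at 1126 and 1807 CPM, 1.61-fold higher (1.53 to 1.69). KRT18, the partner of KRT8 in the filament, stood at 4275 and 3523 CPM inside the gate and at 2738 and 455 outside it. KRT7, a keratin of simple epithelia, stood at 38.4 and 95.7 CPM, 2.49-fold higher (1.96 to 3.17). Without the gated cells counted as holding transcripts of another cell type, the log2 ratio of KRT7 was 0.22 in place of 1.31. Among the cells left out were 20 of 60 TFAP2A-set cells with DMSO and 22 of 45 with CHIR. Of the cells with neither set they were 21 of 56 and 11 of 32. KRT7 stood at 54.0 and 158 CPM in the TFAP2A-set cells and at 29.3 and 15.4 in cells with neither set. Whether the changed make-up bears on the KRT7 ratio was not tested.

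Junction genes were mixed as well. DSP, the desmosome protein desmoplakin, was 3.30-fold higher (2.93 to 3.72), and CDH1 1.75-fold (1.36 to 2.25). SPINT2, a protease inhibitor of epithelial surfaces, was 2.33-fold lower (2.17 to 2.51). The 16 measured junction and keratin genes had a median log2 ratio of 0.05. Among them 2 were higher by 2-fold or more (20.1% of all genes), 2 lower (8.25%) and 12 between. Outside the gate 10 of 14 were lower by 2-fold or more (15.9% of all genes there), at a median of -2.05.

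Wnt ligands and secreted modulators were mostly lower with CHIR, unlike the targets. Of 13 measured, 7 were lower by 2-fold or more (8.25% of all genes) and 2 higher (20.1%), and their median log2 ratio was -1.77. RSPO3, which strengthens Wnt signals at the receptor, stood at 35.9 CPM with DMSO and 4.50 with CHIR, 7.98-fold lower (3.91 to 18.9). The antagonists FRZB and SFRP5, which bind Wnt proteins, were 6.72-fold (3.12 to 17.2) and 5.29-fold (2.66 to 12) lower, and SFRP2 3.47-fold (2.15 to 5.88). WNT4 was 4.00-fold lower (2.23 to 7.80). WNT5A, a ligand of the noncanonical branch, was 3.45-fold higher (2.17 to 5.60), and WNT6 stood at 50.1 and 83.3 CPM, 1.66-fold higher (1.32 to 2.09).

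WNT6 was scarce outside the gate. It had 0.160 CPM outside the gate with DMSO and 0.303 with CHIR, and within the gate 95.6 and 130 CPM in TFAP2A-set cells and 0 in endoderm-gene cells of both. RSPO3, FRZB, SFRP2 and SFRP5 were lower outside the gate as well, at ratios of 0.0728, 0.137, 0.223 and 0.120. Over the 16 members measured outside, however, 6 were lower by 2-fold or more (15.9% of all genes there) and 1 was higher (12.1%). The remaining 9 lay between, and the median log2 ratio of the list there was -0.04. With cells of 2 gate genes let in, the median log2 ratio of Wnt ligands, secreted antagonists and R-spondins moved to -0.26.

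Homeobox genes of the Iroquois family were higher with CHIR. These transcription factors pattern tissues from limb to heart. Among the 6 measured foregut and pharyngeal genes 5 were at least 2-fold higher (20.1% of all genes), and 4 of these were IRX genes. IRX1 stood at 5.35 CPM with DMSO and 29.3 with CHIR, 5.46-fold higher (3.11 to 10.1). IRX2 was 5.17-fold higher (3.36 to 8.19) and IRX3 4.11-fold (2.76 to 6.21). Outside the gate the ratios were 2.57, 5.54 and 1.86. NKX2-1 of thyroid and lung had 9 UMIs with DMSO and FOXE1 of thyroid 12, and both were at 0 with CHIR. PAX1, a pharyngeal gene, was in 2.90% of thinned gated cells with DMSO and 3.57% with CHIR.

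CDX2, a factor of hindgut and trophoblast, had 12 UMIs with DMSO and 26 with CHIR, 3.87-fold higher (1.89 to 8.42). In TFAP2A-set cells it stood at 2.77 CPM with DMSO and was higher with CHIR, at a log2 ratio of 2.96. In endoderm-gene cells CDX2 stood at 15.9 CPM with DMSO, from 8 UMIs, and at 8.71 CPM with CHIR. Its UMIs there were below the minimum set for a comparison, so no direction is read from them. MSX1, a target of BMP and Wnt signals, stood at 75.3 and 209 CPM, 2.78-fold higher (2.36 to 3.29), and MSX2 at 295 and 225. HHIP, an inhibitor that binds Hedgehog ligands, stood at 0.945 and 24.8 CPM, a ratio of 26.2 (8.4 to 132), against 4.69 outside the gate. PTCH1, the Hedgehog receptor and a standard target, stood at 6.93 and 3.94 CPM.

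BMP targets gave no common direction. ID1 stood at 777 CPM with DMSO and 606 with CHIR, ID3 at 1420 and 528, 2.69-fold lower (2.51 to 2.89), and ID2 at 152 and 334, 2.20-fold higher (1.95 to 2.48), though under 2-fold with TMM. Of 11 measured BMP targets 2 were at least 2-fold higher (20.1% of all genes) and 2 lower (8.25%), with a median log2 ratio of -0.45.

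Of 8 listed genes of embryonic stem cells 3 had enough UMIs, and all 3 were at least 2-fold higher (20.1% of all genes). LIN28A, an RNA-binding protein, stood at 13.2 CPM with DMSO and 67.0 with CHIR, 5.06-fold higher (3.53 to 7.38). L1TD1, another RNA-binding protein, was 3.43-fold higher (2.40 to 4.95) and DPPA4, a chromatin protein, 2.25-fold (1.26 to 4.08), which came under 2-fold with TMM. Outside the gate their ratios were 0.861, 1.5 and 1.23. NANOG, which defines pluripotent cells, had 0 UMIs in the gated cells with DMSO and 1 with CHIR.

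snoRNA host genes, whose introns carry small nucleolar RNAs, were higher with CHIR inside and outside the gate. Of 11 measured, 9 were at least 2-fold higher in both places, against 20.1% of all genes inside and 12.1% outside. Their median log2 ratio was 1.60 inside and 1.65 outside. GAS5 stood at 107 CPM with DMSO and 1089 with CHIR, 10.2-fold higher (9.08 to 11.5), and outside the gate at 124 and 1261 CPM, also 10.2-fold. The difference between the 2 places was not tested. SNHG3 was 9.06-fold higher (6.46 to 13.0). In the 3 sets of gated cells the list medians were 1.41, 1.60 and 1.56 for endoderm-gene, TFAP2A-set and remaining cells. Under TMM 6 of the 11 were past 2-fold (11.6% of all genes).

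Interferon genes were lower. Of 12 measured, 6 were lower by 2-fold or more (8.25% of all genes) and 1, USP18, was higher (20.1%). Outside the gate 5 of 12 were lower by as much (15.9% of all genes there) and 1 was higher (12.1%). The median log2 ratio was -1.03 inside and -0.87 outside. IFITM3, a membrane protein that restricts viruses, stood at 862 and 335 CPM, 2.57-fold lower (2.35 to 2.81). B2M, the light chain of MHC class I, stood at 364 and 124 CPM, and HLA-B, one of its heavy chains, at 56.1 and 10.1. IFITM1 was 5.65-fold lower (3.64 to 9.20).

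Of 13 genes of cholesterol synthesis 5 were at least 2-fold higher (20.1% of all genes) and none lower (8.25%). Their median log2 ratio was 0.90 inside and 0.84 outside the gate. SQLE, the squalene epoxidase, stood at 45.7 and 104 CPM, 2.27-fold higher (1.81 to 2.84). With TMM it came under 2-fold. There 2 of the 13 genes were past 2-fold higher (11.6% of all genes) and 1 was lower by as much (13.8%). The log2 ratio of SQLE in endoderm-gene cells was -0.15.

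**Figure D4:**
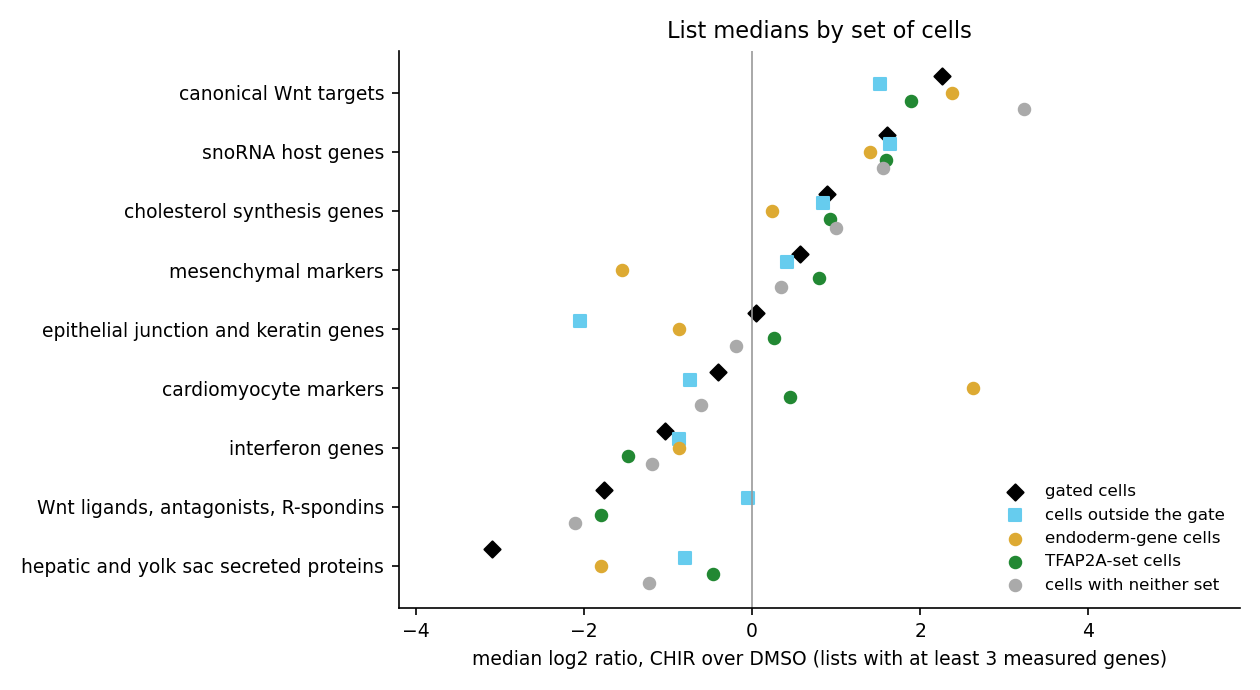
Median log2 ratio of CHIR over DMSO for 9 gene lists (points above 0 are higher with CHIR), in all gated cells (black), the cells outside the gate (pale blue) and 3 sets of gated cells. snoRNA host genes lie between 1.41 and 1.65 in all 5, and secreted protein genes at -3.09 in the gated cells and -0.79 outside.

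Transcripts of heart muscle and mesenchyme were present in the gated cells and differed between the libraries. The 11 cardiomyocyte markers summed to 7361 CPM in the gated cells with DMSO and 2859 with CHIR, against 23970 and 8813 outside the gate. Single gated cells ranged from 136 to 61590 CPM with DMSO and from 80.0 to 33040 with CHIR, and MYH7 was at 0 with CHIR. The 10 mesenchymal markers summed to 1671 and 1691 CPM inside and 2042 and 2802 outside, and none was at 0. Of 8 endothelial markers, PECAM1, CDH5 and TIE1 were at 0 in both libraries. Gated cells were counted as holding transcripts of another cell type by a rule on 9 muscle, mesenchymal and endothelial genes. At least 4 of these genes needed at least 3 UMIs each. The rule cannot tell a gated cell's own transcripts of these genes from those of another cell. Outside the gate, where such genes can be a cell's own, 33.3% of cells with DMSO and 31.1% with CHIR met the same rule. Inside it, the cells so counted were 43 of 138 with DMSO (31.2%) and 33 of 84 with CHIR (39.3%). Without them the median log2 ratio of canonical Wnt targets was 2.90, with 10 of 13 at least 2-fold higher (19.7% of all genes in those cells), and the median log2 ratio of hepatic and yolk sac secreted proteins was -2.86, with 19 of 22 lower (9.10%). The part of other cells' transcripts in the single genes below was not tested.

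MYL7 was the lowest-ranked gene. It stood at 3989 CPM with DMSO and 166 with CHIR, 24.0-fold lower (21.4 to 27.1), and outside the gate at 11210 and 748 CPM, 15.0-fold lower. In cells with neither set it stood at 9101 and 194 CPM, and in TFAP2A-set cells at 767 and 148. NPPB, the natriuretic peptide of heart muscle, was 14.8-fold lower (10.6 to 21.6) and 6.86-fold lower outside. TNNT2 stood at 296 and 428 CPM over all gated cells, and at 49.6 and 714 in the endoderm-gene cells, where 6 of 8 measured cardiomyocyte markers were at least 2-fold higher with CHIR, against 11.6% of all genes compared there. POSTN stood at 16.4 and 105 CPM, 6.39-fold higher (4.68 to 8.87), and 18-fold higher outside, while the log2 ratio of POSTN in endoderm-gene cells was -0.83. LUM, a collagen-binding proteoglycan, stood at 736 and 330 CPM inside and at 449 and 209 outside, higher inside the gate in both libraries.

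The 12 genes highest and the 12 lowest with CHIR were ranked by the end of their interval nearest to 1. Highest were NKD1, FGF9, APCDD1, GAS5, ADAMTS19, LYPD1, SNHG3, LEF1, SNHG32, MAP1B, SFPQ and POSTN. Lowest were MYL7, NPPB, TESC, RARRES2, HTRA1, UBALD2, NNAT, IGFBP7, BST2, NPW, RAMP1 and SPSB3. For all 12 of the lowest and 11 of the highest the ratio outside the gate lay on the same side of 1. The same share over all genes is not given here, so these counts have no comparison.

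LYPD1 was the exception among the highest. This membrane-anchored protein, a modulator of nicotinic receptors, stood at 12.9 CPM with DMSO and 134 with CHIR in the gated cells, 10.4-fold higher (7.42 to 14.8), and at 3.68 and 2.72 CPM outside, where the ratio was 0.740. It had a UMI in 13.8% of gated cells with DMSO (8.50 to 20.7) and 42 of the 84 with CHIR (38.9% to 61.1%), against 4.90% and 2.73% outside. Thinned, the gated shares were 4.35% and 31.0%, and those outside 1.71% and 1.11%. FGF9, a growth factor that epithelia send to mesenchyme, stood at 1.57 and 61.3 CPM, a ratio of 39.0 (16.2 to 122), and at 11.7 and 17.3 CPM outside, a ratio of 1.48. Both genes were higher with CHIR in TFAP2A-set cells and in cells with neither set. The difference between gated and other cells was not tested.

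RARRES2 and NNAT, low with CHIR, stood higher in the gated cells than outside with DMSO. RARRES2, the chemoattractant chemerin, stood at 320 CPM with DMSO and 38.3 with CHIR, 8.36-fold lower (6.54 to 10.8), and at 22.4 and 14.4 outside. NNAT, the imprinted gene neuronatin, stood at 152 and 21.4 CPM, 7.08-fold lower (5.09 to 10.1), and at 24.4 and 21.5 outside. IGFBP7, a secreted binder of growth factors, was 5.30-fold lower (4.65 to 6.08) inside the gate and stood at 236 and 64.7 CPM outside. TESC, a calcium-binding protein, was 19.5-fold lower (8.19 to 60.7), from 174 UMIs to 5.

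**Figure D5:**
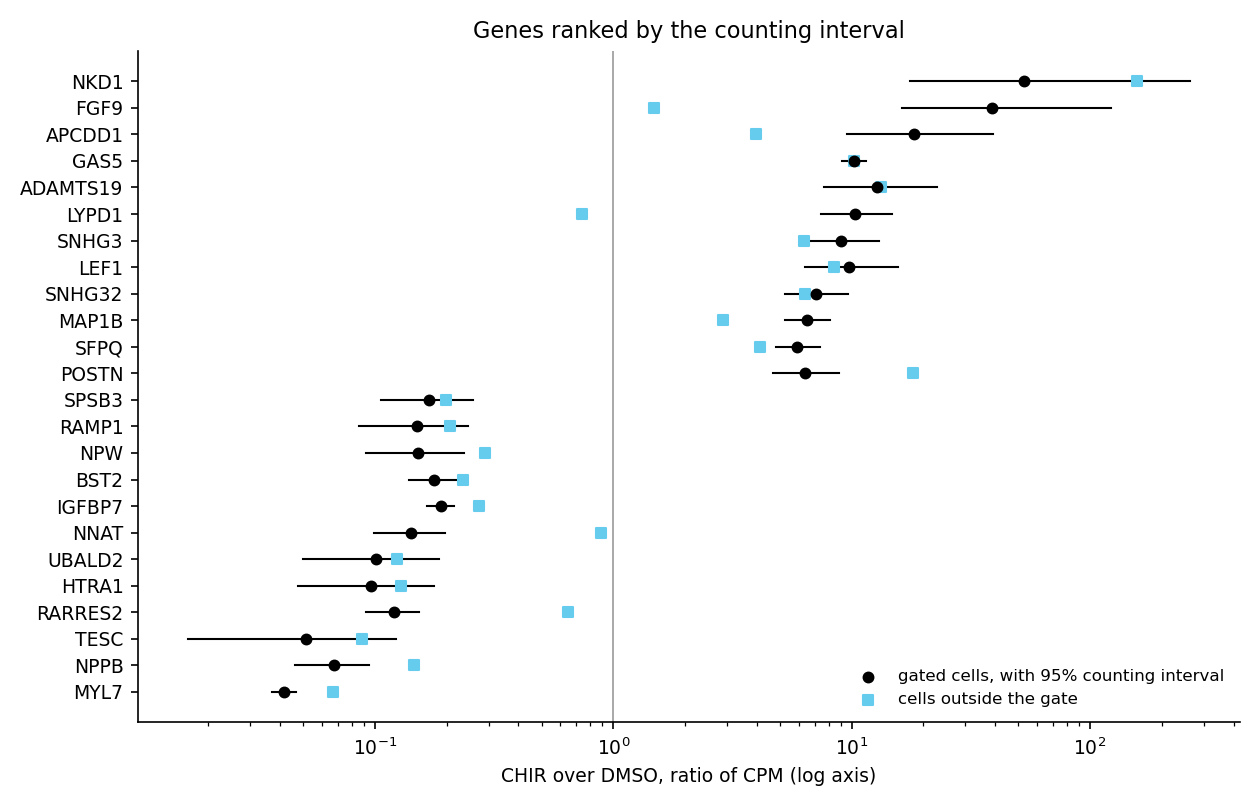
Ratio of CPM, CHIR over DMSO (log axis), for the 12 highest and 12 lowest genes: black points with exact 95% counting intervals are the gated cells, pale squares the cells outside the gate (1 library each). LYPD1 is at 10.4 inside and 0.740 outside, FGF9 at 39.0 and 1.48, and GAS5 at 10.2 in both.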

How the data were processed

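Per the labels' protocols, cells of the H1 line were dissociated with collagenase and Accutase, sorted for live cells and run on the 10x 3′ v3 kit. The authors deposited 1 table of UMI counts per gene and cell for each library. Per the submitters' processing notes, Cell Ranger 6.1.1 and GRCh38 were used, and for day 11 also R 4.1.0 and Seurat 4.3.0. Whether introns were included was not given in the sources used here. In all, the tables list 22469 (DMSO) and 23503 (CHIR) genes, and their cells hold 1804 to 5990 and 1802 to 5994 genes. The libraries hold 65675862 and 81076689 UMIs. H3K27ac and input data were not analysed here.

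Counts of gated cells were added per gene and scaled to CPM, and 0.5 was added for log2 ratios. Called genes differed at least 2-fold with at least 20 UMIs over both libraries. Ratios have conditional binomial and shares Clopper-Pearson 95% intervals, covering counting error only. A difference against 0 counts used a floor of 3 counts over the gated cells. Scrublet (scanpy 1.11.5, rate 0.06) marked 220 DMSO cells (5.48%), 0 CHIR cells and 1 day 11 cell, so it did not work with CHIR or on day 11, and doublets were kept. Python 3.11.15, numpy 2.4.6, scipy 1.17.1 and pandas 2.3.3 were used, with edgeR 4.0.16 on R 4.3.3 for TMM factors alone. The calculations were checked on simulated data. Promoter windows came from RefSeq (GRCh38.p14).

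The cells, genes and 37 lists were chosen with earlier results of these data known. Named genes were 29 fixed by name, up to 4 per list with the most UMIs, and the 12 highest and 12 lowest by the bound nearest to 1, with at least 50 CPM and a UMI in 30% of gated cells in the higher library. The alternatives were other gates, parts of the gated cells, other scalings, UMI minimums and a 1.5-fold threshold. A result on 1 gene of the endoderm set is not reported here.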

Additional observations from a re-analysis of the deposited data

Results flagged for a closer look

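KRT7, a keratin of simple epithelia, differed in opposite directions in the gated cells and in the cells outside the gate. Its CHIR to DMSO ratio was 2.49 in the gated cells and 0.259 outside, where it stood at 1.22 CPM with DMSO and 0.315 with CHIR. The difference was not tested, since each treatment had 1 library. Without the gated cells counted as holding transcripts of another cell type, the log2 ratio of KRT7 was 0.22 in place of 1.31 in the gated cells. The cells left out included 20 of 60 TFAP2A-set cells with DMSO and 22 of 45 with CHIR.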

How the results depend on the processing

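No paired analysis was possible because each treatment had 1 library, and no replicate could be left out for the same reason. The gated share was 6.85% with DMSO and 2.18% with CHIR for at least 2 gate genes, and 2.71% and 0.896% in cells thinned to 5000 UMIs. Against 2132 genes higher and 876 lower, TMM gave 1230 and 1469, a minimum of 50 UMIs 1189 and 564, a minimum of 1 UMI 4610 and 2177, and a 1.5-fold threshold 3859 and 1761. Cells with at least 3 of 6 hepatic genes gave 325 higher and 657 lower and endoderm-gene cells 418 and 742, so that lower genes were the more frequent there. Cells with neither set gave 1237 higher and 816 lower, and TFAP2A-set cells 1820 and 523. The median log2 ratio over all genes, 0.27, was -0.25 in the cells with hepatic genes, 0.40 without mitochondrial and ribosomal protein genes in the totals, -0.033 with TMM, 0.17 at 50 UMIs, -0.20 in endoderm-gene cells and 0.10 in cells with neither set.

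Of 473 recomputed list medians 411 moved little, 62 moved further, and none that was past 2-fold changed its sign. Some medians under 2-fold did change sign. The median of cardiomyocyte markers was -0.41 in all gated cells and 2.90 in the cells with hepatic genes. That of mesenchymal markers was 0.57 in all gated cells and -1.54 in endoderm-gene cells. Of 2013 recomputed values of 169 genes, 1317 moved little, 684 moved further (80 of them under TMM) and 12 reversed. Without cells counted as holding transcripts of another type, KRT7, ID2, RNF43, SQLE and DPPA4 came under 2-fold. APOA2 did under a gate on thinned cells, a gate of 2 genes and a mean over cells. In the cells with hepatic genes the log2 ratio of CCND1 was -0.36, the log2 ratio of FOS 0.49, the log2 ratio of MKI67 -0.79, the log2 ratio of SQLE -0.54 and the log2 ratio of TUBB3 -1.51. In endoderm-gene cells CCND1 was at -0.49, MKI67 at -0.58, POSTN at -0.83 (log2 ratio of POSTN), SQLE at -0.15 and TUBB3 at -1.25. The log2 ratio of DLK1 was 0.25 in TFAP2A-set cells and the log2 ratio of KRT7 -0.88 in cells with neither set. The cause of these reversals was not tested. With 84 gated CHIR cells, genes of few UMIs rest on 1 or a few cells. The endoderm-gene sets, the TFAP2A set and the remainder were chosen after the data were seen.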
